A study of Arabidopsis thaliana with 12 samples.

Results

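In the mutant cpr5npr1svi1, 2 long runs of neighbouring genes on Arabidopsis chromosome 2 gave higher array signal than in the double mutant cpr5npr1. Run 1 reaches from AT2G36350 to AT2G41060 and run 2 from AT2G43160 to AT2G45820. The members are the genes with a probe set annotated to 1 locus in either interval, taken by their brightest probe set and kept where it lay above the dimmest 30% of probe sets. There were 284 such genes, 184 in run 1 and 100 in run 2, of 8611 genes kept in all. These ends match those of a search in the difference between replicate 1 of cpr5npr1svi1 and replicate 1 of cpr5npr1. Since the members were chosen on this contrast, its size is given below as a description, without a test. The gene table of the assembly TAIR10.1 lists 833 loci in the 2 intervals. Of these, 386 had a single-locus probe set here, and 102 of the 386 were too dim to be kept. Places on the chromosome are given as gene order only, since the probe annotation names no genome build.

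Transcripts were measured on 12 Affymetrix ATH1 arrays from aerial parts of plants 2 weeks old, grown at 23 C and 70% humidity with a 16 h photoperiod under fluorescent light. The 6 groups of 2 arrays were the triple mutant cpr5npr1svi1, the double mutant cpr5npr1, cpr5 with the suppressor scv1 (cpr5scv1), cpr5, npr1 and the wild type Col-0 (WT), and cpr5npr1svi1 thus carries the cpr5 and npr1 lesions that cpr5npr1 carries too. Per the labels, cpr5npr1 resists the oomycete P. parasitica and cpr5scv1 is as susceptible to it as the wild type, while no pathogen phenotype of cpr5npr1svi1 is stated, and no allele or crossing history is given for svi1. Whether both arrays of a genotype stem from plants grown apart is not stated, so the p-values cover array-to-array spread only, and this may be technical. Per array, 76.9% to 79.5% of the probe sets exceeded a background signal of 7.76. The photosynthesis gene RCA, a marker of green tissue, exceeded background in all 12 arrays, with signals of 4839 and 7166 in cpr5npr1svi1 and 3779 to 6054 in the other 10 arrays. RCA is itself a member of run 1, so its values show green tissue in each array and do not compare the genotypes. CPR5 and NPR1 themselves were not analysed here. The arrays measured RNA, and genomic DNA of these plants was not analysed here. In whole shoots, a lower signal from fewer cells of a type and from less RNA per cell cannot be told apart.

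Arabidopsis nuclear genes are mostly transcribed one by one from their own promoters, and neighbours on a chromosome often serve unrelated functions. Tandem duplicates are an exception, since adjacent copies of a gene can keep related roles, as in families of chitinases, jacalin-related lectins or glucosidases. CPR5 restrains defence, and cpr5 plants form spontaneous lesions and express defence genes without a pathogen, while NPR1 is a co-activator of the response to salicylic acid.

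The median member was 1.80-fold higher in cpr5npr1svi1 than in cpr5npr1, a log2 difference of 0.85. It was 0.85 in run 1 (1.81-fold) and 0.82 in run 2 (1.77-fold). In the pair of replicate 2 arrays the medians were 0.82 in run 1 and 0.81 in run 2, beside 0.83 and 0.86 in the replicate 1 arrays. The other 8327 genes had a median of -0.03. Against the other genotypes the medians over both runs were 0.86 against cpr5scv1, 0.83 against cpr5, 0.88 against npr1 and 0.85 against WT, all higher in cpr5npr1svi1. These comparisons all share the 2 cpr5npr1svi1 arrays. A gene is said here to follow the 1.7-fold level where its log2 difference lies between 0.38 and 1.15 (1.30-fold to 2.22-fold), bounds that lie equally far below and above log2 of 1.7 (0.77).

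**Figure D1:**
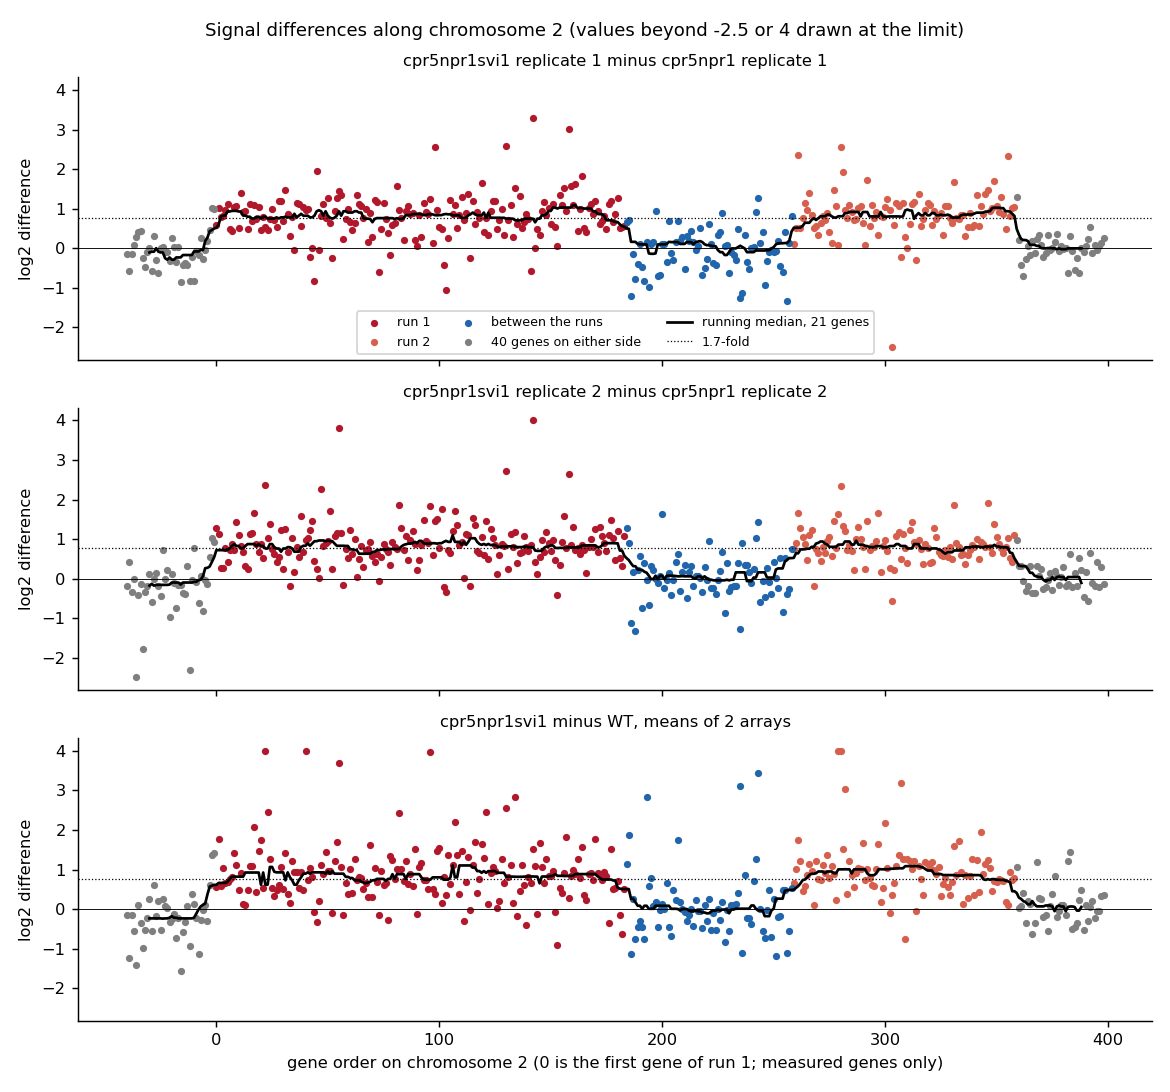
Log2 signal differences gene by gene along chromosome 2 (x axis, gene order), in replicate 1 (top), replicate 2 (middle) and against WT (bottom); points are genes, the line is the running median of 21 genes and the dotted line 1.7-fold. Both runs stand near 0.8 in each panel, the 75 genes between them near 0, and the 40 genes before run 1 at a median of -0.07 against cpr5npr1 and of -0.23 against WT.

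Array by array, the members stood apart only in the cpr5npr1svi1 arrays. Relative to the mean log2 signal of the 10 other arrays, the median of run 1 was 0.90 and 0.81 in the cpr5npr1svi1 arrays, and between -0.03 and 0.08 in the 10 others. For run 2 it was 0.87 and 0.89 in the cpr5npr1svi1 arrays and between -0.06 and 0.07 in the others. The genes between the runs had medians of -0.004 and 0.01 in the cpr5npr1svi1 arrays and of -0.09 to 0.19 in the others. Both cpr5npr1svi1 arrays lay above both cpr5npr1 arrays for 248 of the 284 members, where 17.9% of all probe sets did so. They lay above all 10 other arrays for 195 members, or 68.7%, where 3.94% of all 15923 probe sets tested did so. No member lay below all 10, where 1.84% of probe sets did. The members were chosen on part of these arrays, so the counts are descriptions.

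**Figure D2:**
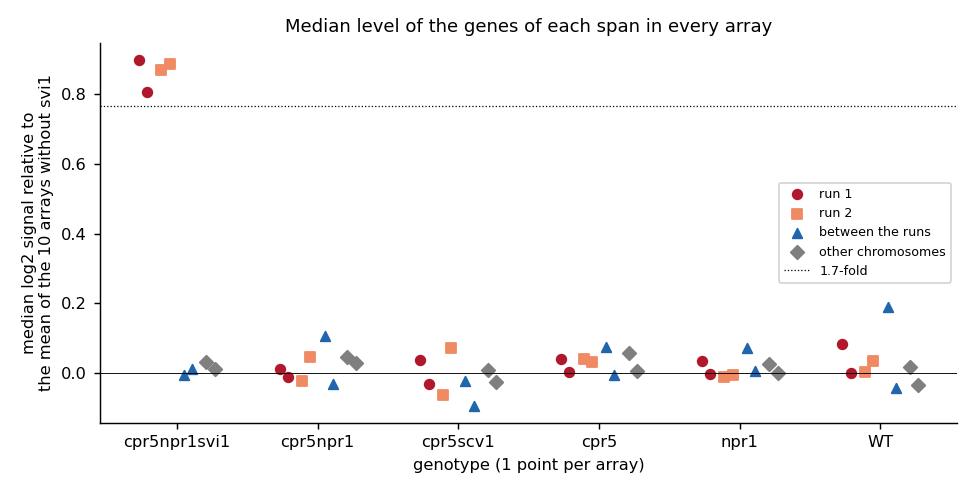
Median log2 signal of the genes of each span in every array (1 point per array), relative to the mean of the 10 arrays without svi1; genotypes on the x axis, cpr5npr1svi1 at the left. The run 1 and run 2 points of the cpr5npr1svi1 arrays lie between 0.81 and 0.90, and those of the other arrays between -0.06 and 0.08.

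The difference was even along each run. Cut into 9 stretches of 20 or 21 neighbouring genes, run 1 had stretch medians from 0.76 (AT2G38420 to AT2G38870) to 0.96 (AT2G39360 to AT2G39750). The 5 stretches of 20 genes in run 2 had medians from 0.75 (AT2G44670 to AT2G45240) to 0.91 (AT2G43570 to AT2G44090). In replicate 2 alone the stretch medians ran from 0.72 to 1.00 in run 1 and from 0.65 to 0.91 in run 2. No stretch returned to the level of the genes outside the runs. The run ends match a search in replicate 1 for running medians above 0.5 over 21 genes. High stretch medians were therefore largely set by the choice of the runs, and only the replicate 2 values lie outside that search.

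Gene by gene, 276 members had a higher mean log2 signal in cpr5npr1svi1 than in cpr5npr1 and 8 had a lower one. In 263 of them both replicate pairs were positive, against 26.2% of genes outside the runs. The quartiles of the members were 0.61 and 1.04, or 1.53-fold and 2.06-fold. The 1.7-fold level held 209 members (73.6%), while 46 lay above it and 29 below it; of the genes outside the runs, 8.84% lay within the same bounds. The members nearest to the lower bound were AT2G36885 at 0.37 just outside and AT2G44300 at 0.41 just inside, and those nearest to the upper bound were BGLU15 at 1.14 inside and AT2G43800 at 1.16 outside. Against all 5 other genotypes at once, 248 members (87.3%) were positive and 80 (28.2%) were within the level, where 14.0% and 0.48% of the genes outside the runs were.

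**Figure D3:**
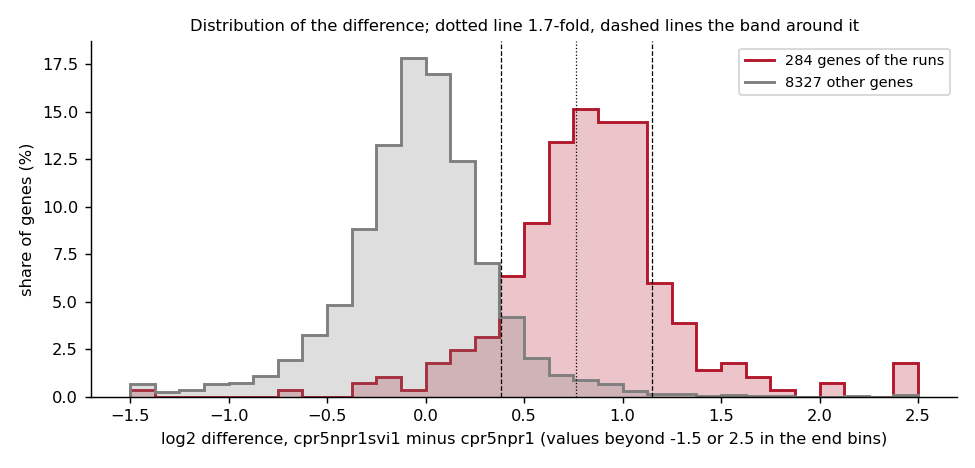
Distribution of the log2 difference, cpr5npr1svi1 minus cpr5npr1, as the share of genes (y axis, %) per bin for the 284 genes of the runs and the 8327 other genes; the dotted line marks 1.7-fold and the dashed lines the bounds of the level. The distribution of the runs is displaced to the right, with quartiles at 0.61 and 1.04.

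Scatter around the level went with signal. Among the dimmest 94 members, with mean signals of 11.1 to 42.3 over the 10 arrays without svi1, 56.4% were within the level and the SD of the log2 difference was 0.73. Among the 95 of middle brightness 78.9% were within it (SD 0.36), and among the brightest 95, with signals from 111 upwards, 85.3% (SD 0.33). The medians of these 3 classes were 0.73, 0.89 and 0.86. Across the 284 genes, mean log2 signal had a Pearson correlation of 0.03 with the difference itself and of -0.30 with its distance from the median. The 102 genes of the intervals that were too dim to be kept had a median of 0.18, and 26 of them lay within the level. What part noise at low signal has in the genes off the level was not tested.

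Of the 284 members, 42 carry a RefSeq symbol and 5 more are named through a synonym. These 47 had a median of 0.93 (34 within the level, 9 above, 4 below), and the 237 known by locus code only had a median of 0.83 (175 within, 37 above, 25 below). By role, the medians were 0.93 for 10 defence and stress genes, 0.84 for 7 cell wall genes, 0.93 for 4 chloroplast genes, 1.20 for 7 genes of transcription and signalling, 0.86 for 6 of membrane traffic and transport, 0.68 for 5 of metabolism and 0.93 for 8 of protein and RNA handling, cytoskeleton and growth. No role stood near 0. The named genes are a small share of the runs: of 200 genes listed by function from general knowledge of the 2 intervals, 36 were kept and 23 of those have a name here.

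Among the defence and stress genes, BIK1, a receptor-like cytoplasmic kinase that acts below pattern recognition receptors, had signals of 219 and 240.3 in cpr5npr1svi1, against 143 and 93.4 in cpr5npr1. Its difference was 0.99 (0.61 in replicate 1 and 1.36 in replicate 2). The cpr5scv1 arrays read 208 and 182 and the WT arrays 70.8 and 70.4, with 101 and 95.1 in cpr5, so both cpr5npr1svi1 arrays were the highest. CHI, a chitinase, had 1188 and 1374 in cpr5npr1svi1, against 1120.1 and 439.8 in cpr5npr1, so the higher cpr5npr1 array came close to the lower cpr5npr1svi1 array and the replicates gave 0.08 in replicate 1 and 1.64 in replicate 2. YLS5, named after yellow leaves, had 529 and 526 in cpr5npr1svi1, against 271 and 145 in cpr5npr1 (1.41, above the level). The glucosidase genes BGLU15 and BGLU28 are neighbours: BGLU15 had 93.9 and 69.8 in cpr5npr1svi1, against 42.8 and 31.7 in cpr5npr1 (1.14), and BGLU28 had 14.0 and 9.71 in cpr5npr1svi1, against 11.5 and 5.72 in cpr5npr1 (0.52). For BGLU28, 1 of 2 cpr5npr1 arrays was below background, and with that array set to the background signal the BGLU28 difference was 0.30, below the level. The WT arrays of BGLU28 read 24.3 and 15.9, above both cpr5npr1svi1 arrays.

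The jacalin-related lectin genes JAL22 and JAL23 stand close together and differed. Between them lies the dim member AT2G39320, at -0.31. JAL22 had 98.6 and 98.6 in cpr5npr1svi1, against 70.2 and 29.2 in cpr5npr1 (1.12), whereas JAL23 had 38.0 and 75.7 in cpr5npr1svi1, against 79.8 and 95.2 in cpr5npr1 and was the named member farthest below the level, at -0.70. In JAL23 the cpr5npr1svi1 arrays also lay below those of cpr5scv1, at 96.3 and 218, and were above those of npr1, at 14.0 and 23.2. EULS3, a lectin that binds carbohydrates, had 136 and 157 in cpr5npr1svi1, against 118 and 85.0 in cpr5npr1 (0.55). LEA26, of the late embryogenesis abundant proteins, and NATA2, an N-acetyltransferase, were within the level at 0.78 and 1.04. The LEA26 signals were 1062 and 1131 in cpr5npr1svi1, against 631 and 650.5 in cpr5npr1, and the 8 other arrays read 612 to 747, so the cpr5npr1svi1 arrays did not overlap with any.

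Of the cell wall genes, 5 were within the level and 2 above it. TBL28 and TBL30, neighbours in the family that acetylates wall polysaccharides, and TBL34 had differences of 0.84, 0.73 and 0.74. TBL34 had 37.9 and 31.5 in cpr5npr1svi1, against 22.6 and 18.9 in cpr5npr1. TBL28 had 56.2 and 58.9 in cpr5npr1svi1, against 30.9 and 33.6 in cpr5npr1, but its WT arrays were higher, at 93.0 and 61.9, so against WT its difference was -0.40. GlcAT14C, a glucuronosyltransferase acting on arabinogalactan proteins, had 92.3 and 83.7 in cpr5npr1svi1, against 42.1 and 48.2 in cpr5npr1 (0.96), and XTH32, a xyloglucan endotransglucosylase/hydrolase, had 455 and 366 in cpr5npr1svi1, against 237 and 293 in cpr5npr1 (0.63).

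The expansin genes EXPA4 and EXPA8, whose products loosen walls during growth, were the 2 wall genes above the level. EXPA4 had 402 and 400.3 in cpr5npr1svi1, against 128 and 192 in cpr5npr1, with 103 to 187 in the 8 other arrays, and so exceeded the upper bound against all 5 genotypes (1.35 against cpr5npr1, 1.64 against WT). EXPA8 had 394 and 566 in cpr5npr1svi1, against 49.0 and 90.0 in cpr5npr1, a 7.11-fold difference (2.83). In WT, EXPA8 read 277 and 545, so its difference from WT was 0.28 and the arrays of cpr5npr1svi1 and WT overlapped.

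All 4 named chloroplast genes were within the level. HEME2, a uroporphyrinogen decarboxylase of tetrapyrrole synthesis, had 974 and 1069.7 in cpr5npr1svi1, against 459 and 565 in cpr5npr1 (1.00), and LHCB4.3, an antenna protein of photosystem II, had 656 and 304 in cpr5npr1svi1, against 264 and 194 in cpr5npr1 (0.98). ATATH8 had a difference of 0.88, with 0.86 in replicate 1 and 0.90 in replicate 2. RCA, the activase of Rubisco, was the lowest of the 4 at 0.42, just inside the lower bound. Against WT these 4 genes had a median of 0.44.

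Of the 7 genes of transcription and signalling, 4 were above the level and 3 within it. SNZ, an AP2-type repressor of flowering, had 92.5 and 84.0 in cpr5npr1svi1, against 15.6 and 30.6 in cpr5npr1 (2.01), but WT, at 59.2 and 77.9, was close below, and the difference from WT was 0.38. MYBC1, a MYB-related transcription factor, had 100.4 and 129.9 in cpr5npr1svi1, against 44.0 and 46.9 in cpr5npr1 (1.33), and RR16, a response regulator of cytokinin signalling, had 157 and 98.2 in cpr5npr1svi1, against 44.8 and 54.8 in cpr5npr1 (1.33). The bZIP genes differed from each other: bZIP18, next to EXPA8, was at 1.20, and BZIP17, a membrane-tethered factor of stress responses, at 0.60. SWC2, a subunit of the SWR1 chromatin remodelling complex, and BPM3, an adaptor of cullin ubiquitin ligases, were at 1.11 and 1.10. BPM3 had 288 and 257 in cpr5npr1svi1, against 126 and 127 in cpr5npr1, and the 8 other arrays lay at 123 to 165.

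In membrane traffic and transport, RAB6A, a small GTPase of the Golgi, had 334 and 394 in cpr5npr1svi1, against 128 and 199 in cpr5npr1 (1.18). PRA1.B4, of the prenylated Rab acceptor family, VPS37-2, of the ESCRT machinery that sorts membrane proteins, and MTP11, a manganese transporter, were within the level at 0.94, 0.88 and 0.84. ATG8E, a ubiquitin-like protein of autophagosomes, had 435 and 685 in cpr5npr1svi1, against 349 and 527 in cpr5npr1, and its difference of 0.35 was below the level in both replicates (0.32 in replicate 1 and 0.38 in replicate 2). Against WT, at 309 and 293, ATG8E was at 0.86. SWEET9, a sugar transporter of nectaries, was dim in every array (9.94 and 19.1 in cpr5npr1svi1, against 9.59 and 16.4 in cpr5npr1) and did not follow (0.14).

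The 5 metabolic genes ranged from 0.54 to 1.25. FAC1, an AMP deaminase, had 496 and 469 in cpr5npr1svi1, against 194 and 212 in cpr5npr1 (1.25) and 183 to 257 in the 8 other arrays. COS1, a lumazine synthase of riboflavin formation, had 808 and 698 in cpr5npr1svi1, against 378 and 395 in cpr5npr1 (0.96). PMM, a phosphomannomutase that supplies precursors of ascorbate and glycans, had 671 and 643 in cpr5npr1svi1, against 381 and 449.8 in cpr5npr1 (0.66). GLX2-1, of the glyoxalase II family, and ETFQO, which passes electrons from amino acid breakdown into the mitochondrial chain, were at 0.68 and 0.54. In all 5 the cpr5npr1svi1 arrays lay above every other array, as in 68.7% of all members, where 3.94% of all probe sets did so. The members were chosen with these arrays.

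The last 8 named genes handle proteins and RNA or act in the cytoskeleton and in growth. LSM6B, a subunit of the LSM rings that bind RNA, had 233 and 301 in cpr5npr1svi1, against 112 and 149 in cpr5npr1 (1.06 in replicate 1 and 1.01 in replicate 2). MAP1A, a methionine aminopeptidase, had 375 and 394 in cpr5npr1svi1, against 201 and 241 in cpr5npr1 (0.80), and ATMAK3, an N-terminal acetyltransferase, stood at 1.01. WLIM2a, an actin-bundling LIM protein, TRM18, named for its TON1-recruiting motif, and AUR3, an aurora kinase of mitosis, were at 0.93, 0.92 and 0.53. ARL, which promotes cell expansion, had 251 and 334 in cpr5npr1svi1, against 198 and 105 in cpr5npr1 and uneven replicates (0.34 in replicate 1 and 1.66 in replicate 2). LOJ, a pentatricopeptide repeat protein, was dim and below the level at 0.36.

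**Figure D4:**
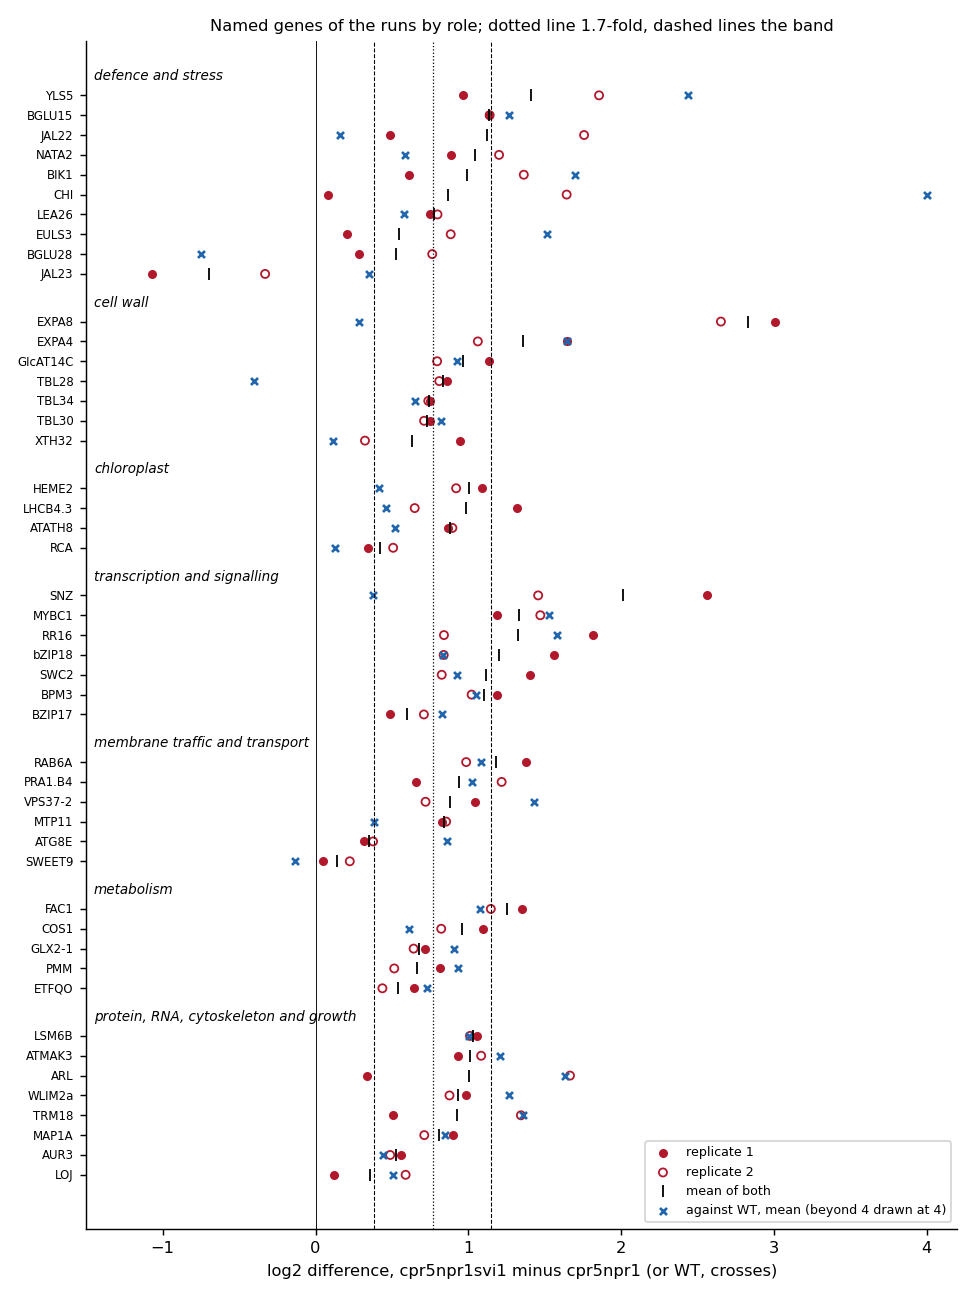
The 47 named genes of the runs by role, with the log2 difference from cpr5npr1 on the x axis in replicate 1 (filled), replicate 2 (open) and as their mean (bar), and the difference from WT as crosses. Of the 47 means, 34 lie between the dashed bounds of the 1.7-fold level, 9 above and 4 below; EXPA8 and SNZ are high against cpr5npr1 and close to WT.

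Above the level, 24 members exceeded the upper bound in both replicates, and 8 members did so on average against each of the 5 other genotypes. These 8 were EXPA4, AT2G39920, AT2G40230, AT2G40780, AT2G43200, AT2G43590, AT2G43610 and AT2G44940; outside the runs, 2 of 8327 genes did. AT2G44940 had 125 and 149.6 in cpr5npr1svi1, against 39.4 and 41.4 in cpr5npr1 and 40.4 to 49.2 in the 8 other arrays, so a level that was flat over 5 genotypes was 3.39-fold higher in cpr5npr1svi1. AT2G39920 had 69.4 and 113 in cpr5npr1svi1, against 11.6 and 17.0 in cpr5npr1, a 6.30-fold difference, and AT2G43200 had 51.9 and 45.0 in cpr5npr1svi1, against 10.2 and 14.2 in cpr5npr1, 4.02-fold. AT2G40230 showed the largest value, with 48.7 and 93.9 in cpr5npr1svi1, against 4.93 and 3.98 in cpr5npr1. Both cpr5npr1 arrays lay below background, so cpr5npr1svi1 was at least 8.71-fold higher. Its npr1 and WT arrays, at 25.5 and 26.0 and 19.9 and 28.3, were between those levels, and against WT the difference was 1.51.

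In several other high members the difference varied with the genotype compared. AT2G38240 had 176 and 366 in cpr5npr1svi1, against 64.6 and 26.1 in cpr5npr1, and 102 and 188 in cpr5scv1. Its difference was 2.63 from cpr5npr1, 0.88 from cpr5scv1, 2.12 from cpr5, 4.08 from npr1 and 3.70 from WT. AT2G39210 had 933 and 955 in cpr5npr1svi1, against 393 and 265 in cpr5npr1 (1.55), with 49.7 and 73.3 in WT. AT2G45630 was at 1.54 against cpr5npr1, 0.43 against cpr5scv1, 0.92 against cpr5, 0.39 against npr1 and 0.72 against WT. Next to CHI, the locus-code genes AT2G43590, AT2G43610 and AT2G43620 were at 2.45, 1.63 and 1.09, beside 0.86 for CHI itself.

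Below the level, 15 members missed the lower bound in both replicates, and 4 members (AT2G37975, AT2G38100, AT2G39640 and AT2G40460) missed it against all 5 genotypes. AT2G37975 had 101 and 139.9 in cpr5npr1svi1, against 104 and 137 in cpr5npr1 and 77.7 to 130.2 in the other 8 arrays, so the genotypes overlapped. Its mean difference from cpr5npr1 was -0.01. AT2G38100 and AT2G39640 were dim, with cpr5npr1svi1 signals of 17.2 and 17.6 and of 12.6 and 14.6. AT2G40460 had 89.8 and 53.5 in cpr5npr1svi1, against 86.6 and 71.3 in cpr5npr1, with 138 and 121 in WT, above both cpr5npr1svi1 arrays. AT2G37540 had 350.1 and 349 in cpr5npr1svi1, against 364 and 313 in cpr5npr1 and was above 211 and 157 in WT (0.94).

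Lower signals in cpr5npr1svi1 in both replicates were found for 5 members: JAL23, AT2G38690, AT2G39320, AT2G39640 and AT2G44240. AT2G44240 had 1.56 and 13.6 in cpr5npr1svi1, against 26.4 and 20.2 in cpr5npr1, with 1 cpr5npr1svi1 array below background. The same gene read 274 and 319 in cpr5scv1 and 274 and 133 in cpr5, against 1.77 and 2.68 in npr1 and 2.09 and 6.21 in WT. In this gene cpr5scv1 and cpr5 were far above the rest. Its measured neighbour AT2G44230 was within the level at 0.61.

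**Figure D5:**
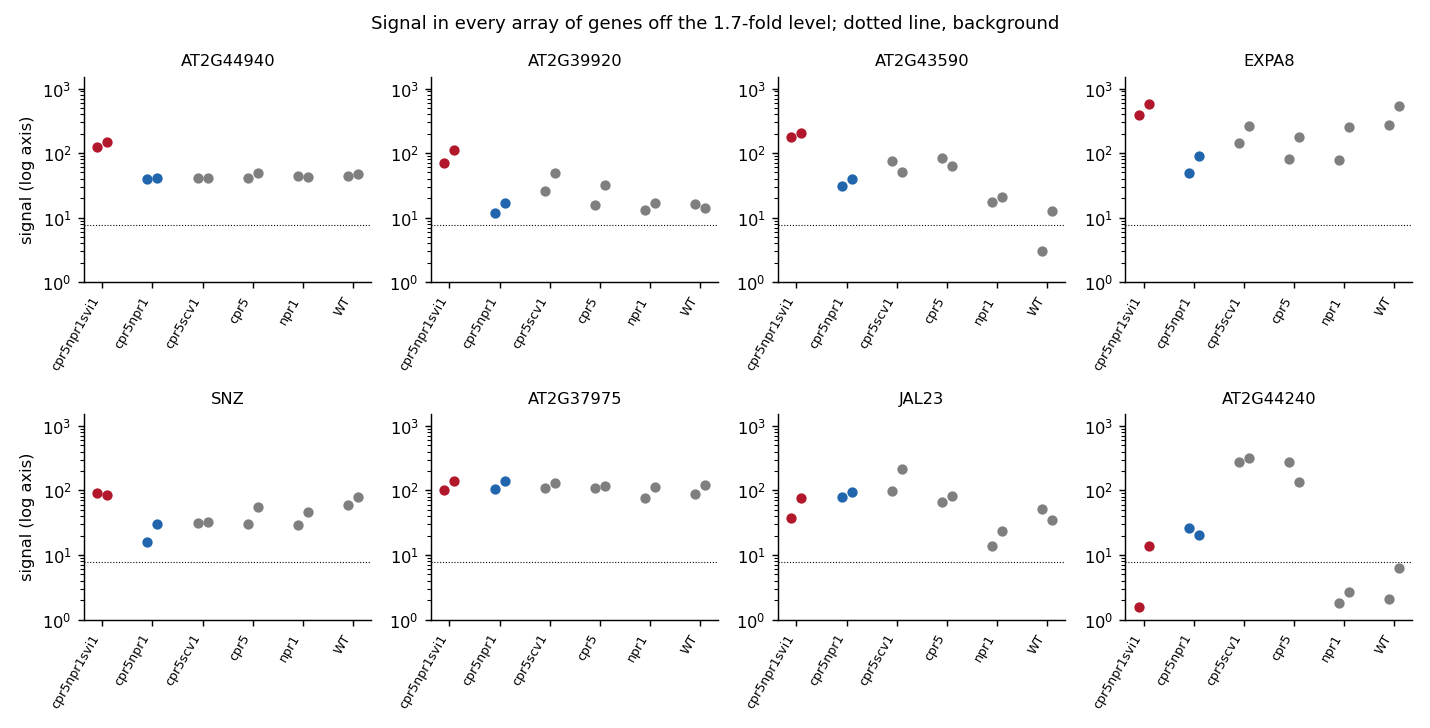
Signal (log axis) in every array of 8 genes off the 1.7-fold level, with cpr5npr1svi1 at the left of each panel and the dotted line at the background signal of 7.76. AT2G44940, AT2G39920 and AT2G43590 exceed every other array, EXPA8 and SNZ come near WT, AT2G37975 is level across genotypes, and JAL23 and AT2G44240 vary with the other genotypes.

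To place each of the 4 ends, the 80 genes around it were split at the point that left the least absolute deviation from the 2 medians on either side, with the difference from cpr5npr1, its 2 replicates and the differences from the other 4 genotypes taken in turn. Such a split always falls between neighbouring measured genes and does not measure how sharp an end is. Each of these differences uses 1 or both cpr5npr1svi1 arrays, so they are not independent of each other. At the start of run 1 all 7 differences placed the split between AT2G36250 and AT2G36290, which is 3 measured genes before AT2G36350. FTSZ2-1 (AT2G36250), a chloroplast division protein and the last gene before the split, was at 0.02, while AT2G36290, AT2G36300 and AT2G36320 were at 0.50, 1.02 and 0.96. The medians on the 2 sides were -0.08 before the split and 0.85 after it.

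At the end of run 1 all 7 differences placed the split between AT2G41090 and AT2G41120, so the level extended over AT2G41080 (0.97) and AT2G41090 (0.80). AT2G41090 had 3289 and 3984 in cpr5npr1svi1, against 2017 and 2145 in cpr5npr1. The next measured gene, AT2G41120, had 59.0 and 56.7 in cpr5npr1svi1, against 136 and 123 in cpr5npr1 and was at -1.16. Its cpr5scv1 arrays, at 73.4 and 68.5, were low as well. AT2G41160 followed at 0.02 and AT2G41170 at -1.06.

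The start of run 2 was placed between AT2G43030 (-0.06) and AT2G43150 (0.78) by 5 of the 7 differences, and 1 gene later against npr1 and 2 genes later against cpr5scv1. The first gene of the rule, AT2G43160, was at 0.42, with 0.10 in replicate 1 and 0.74 in replicate 2. At the end of run 2, 6 of 7 differences placed the split between AT2G45860 (1.14) and AT2G45870 (0.26), and that against cpr5scv1 came 1 gene later. Of the 40 genes before run 1 and the 40 after run 2, the medians against cpr5npr1 were -0.07 and -0.05. Against npr1 and WT the 40 genes before run 1 had medians of -0.20 and -0.23. On all 5 chromosomes, running medians over 21 genes were searched for stretches of at least 20 genes beyond 0.5 in either direction. The mean difference from cpr5npr1 gave 2 such stretches, AT2G36300 to AT2G41080 (187 genes) and AT2G43200 to AT2G45860 (99 genes), both higher in cpr5npr1svi1. The 10 other searches took the replicates apart, windows of 11 or 31 genes, bounds of 0.4 or 0.6, or another genotype as reference. They also found 2 stretches each, both in this part of chromosome 2 and higher, of 183 to 190 and 97 to 103 genes. Each search used 1 or both cpr5npr1svi1 arrays, so the searches are not independent. That in replicate 1 has the ends of the rule by construction.

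The 75 genes between the runs did not share their level. Their median difference from cpr5npr1 was -0.03, beside -0.05 over 889 genes of the rest of chromosome 2 and -0.02 over 7363 genes of the other chromosomes. Of the 75, 12 were within the 1.7-fold level, and without the 3 genes that adjoin the runs 9 of 72 were (12.5%). NTRC, a thioredoxin reductase of chloroplasts, LIS, a splicing-related protein of gamete development, and OEP16-3, of the outer plastid envelope, were at -0.28, 0.20 and 0.15. GPT, of N-glycan assembly, and TBL39, a relative of the TBL genes of run 1, were at 0.20 and -0.23.

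The cold-regulated neighbours COR15A and COR15B, which protect chloroplast membranes during freezing, were exceptions in the middle of this interval. COR15A had 415 and 352 in cpr5npr1svi1, against 171 and 129.7 in cpr5npr1 (1.36), with 228 and 126 in cpr5 and 30.9 and 40.6 in WT, and COR15B had 88.4 and 96.5 in cpr5npr1svi1, against 46.9 and 47.1 in cpr5npr1 (0.97). Both had cpr5npr1svi1 arrays above all 10 others, as had AT2G41080, AT2G41090 and AT2G41730, the last measured by a probe set of a kind that can match several transcripts. These 5 were 6.67% of the 75 genes, where 3.94% of all probe sets lay above all 10. Of all genes outside the runs, 1.74% did. Without the 3 genes that adjoin the runs, 3 of 72 did. The gene farthest below was AT2G42360, with 29.5 and 16.0 in cpr5npr1svi1, against 70.0 and 38.5 in cpr5npr1 and 5.17 and 1.23 in WT. The genes with both cpr5npr1svi1 arrays below all 10 others were AT2G41120, AT2G41170 and AT2G42710, or 4.0% of the 75, where 1.84% of all probe sets were.

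In the limma fit over all probe sets, 55 members were called higher and 0 lower in cpr5npr1svi1 than in cpr5npr1 at a Benjamini-Hochberg adjusted p below 0.05. Over all 15923 probe sets 1.15% were called, 0.829% higher and 0.32% lower. At an unadjusted p below 0.05 limma had 208 members, where 10.3% of probe sets passed. With the replicate number as a block, which pairs the arrays, 139 members were called (48.9%), where 3.97% of all probe sets were. The count fell without any 1 array of cpr5npr1svi1, cpr5npr1, cpr5scv1, cpr5 or npr1 and rose without either WT array. The count over all probe sets moved the same way each time. Against WT 142 members were called higher and 1 lower (AT2G40460), where 12.0% of probe sets were called (7.88% higher, 4.08% lower). This count fell without any 1 array. So did that over all probe sets, except without WT replicate 2, where it rose. The members had been chosen with these arrays, so the counts only describe the choice.

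In the comparisons without a cpr5npr1svi1 array, the runs were called about as often as the probe sets as a whole. In cpr5 against WT, 23 members (8.10%) passed the adjusted threshold, 19 higher and 4 lower, where 8.71% of all probe sets were called (6.56% higher, 2.15% lower). In cpr5scv1 against WT it was 62 members (21.8%), 39 higher and 23 lower, where 22.4% were called (12.8% higher, 9.55% lower). In cpr5scv1 against cpr5 it was 3 (1.06%), 1 higher and 2 lower, where 0.804% were called (0.327% higher, 0.477% lower). In npr1 against WT limma called 0 members (0.00628% of probe sets), with 17 at an unadjusted p below 0.05 (5.99%, where 5.65% of probe sets were). The medians of the members in these 4 comparisons were 0.01, -0.01, -0.02 and -0.003.

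The double mutant cpr5npr1 also entered the choice of members, so its comparisons are not independent of it. In cpr5npr1 against npr1, 16 members (5.63%) were called, 14 higher and 2 lower, where 5.12% of probe sets were called (4.32% higher, 0.798% lower). In cpr5npr1 against cpr5 limma called 0 members (0.044% of probe sets), with 15 at an unadjusted p below 0.05 (5.28%, where 3.9% were). With the replicate block, 49 members were called in cpr5 against WT (17.3%, where 17.4% of all probe sets were), 94 in cpr5scv1 against WT (33.1%, where 34.0% were), 9 in cpr5scv1 against cpr5 (3.17%, where 3.8% were) and 27 in cpr5npr1 against npr1 (9.51%, where 10.4% were). Without either cpr5 array, among others, fewer members were called in cpr5 against WT, and without any 1 array fewer were called in cpr5scv1 against WT. In cpr5scv1 against cpr5 the count fell without any 1 array of these 2 genotypes or of npr1 and rose without either WT array. In npr1 against WT it rose without WT replicate 2. In cpr5npr1 against npr1 it fell without any 1 array other than those of WT and rose without either WT array. In each of these cases the count over all probe sets moved the same way.

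Within the runs, the genes that rose in cpr5 included CHI and, near it, AT2G43590 and AT2G43620, while AT2G43610 was not called and AT2G43560 fell. CHI had 768 and 1226 in cpr5, against 23.2 and 9.49 in WT (limma log2 change 6.03, SE 0.53, adjusted p = 9.8e-05), and 1120.1 and 439.8 in cpr5npr1, against 22.3 and 11.0 in npr1 (5.49, SE 0.53, adjusted p = 0.00025). AT2G43590 was at least 7.37-fold higher in cpr5 than in WT, with 1 of 2 WT arrays below background (limma adjusted p = 0.0021), and AT2G43620 rose by 2.18 on the log2 scale (limma adjusted p = 0.0013). AT2G44240 was at least 24.6-fold higher in cpr5 (limma adjusted p = 0.0022). AT2G37750 rose by 3.89 in cpr5 and by 2.86 in cpr5npr1 against npr1, and AT2G39210 by 2.94 and 2.05. These calls, with AT2G40270 (1.28) and AT2G40600 (1.15) in cpr5, were the 8 of 23 that held whichever array was left out. In cpr5npr1 against npr1, CHI, AT2G37750, AT2G39210, AT2G43620 and AT2G40270 were the 5 of 16 that held.

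The other calls in cpr5 were lost without at least 1 array. AT2G37130, at least 3.90-fold higher in cpr5 with both WT arrays below background, was lost without cpr5 replicate 2 (limma adjusted p = 0.0569). YLS5 rose by 1.13 and was lost without WT replicate 1 or either cpr5 array, up to a limma adjusted p of 0.137. EULS3 rose by 1.11 and was lost without WT replicate 2 or either cpr5 array, up to 0.112. The 4 genes called lower in cpr5 were AT2G40230, by at least 2.97-fold, AT2G43560 (-0.89), AT2G40700 (-0.76) and AT2G36835 (-0.56), and each was lost without at least 2 arrays, with limma adjusted p up to 0.137, 0.0589, 0.219 and 0.231. In cpr5npr1 against npr1, JAL23 rose by 2.28 and was lost without either cpr5npr1 array or npr1 replicate 1 (limma adjusted p up to 0.117), and AT2G40230 was at least 3.32-fold lower and was lost without any 1 array of these 2 groups (up to 0.135).

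In cpr5scv1 against WT, 22.4% of all probe sets were called (12.8% higher, 9.55% lower). Of the 62 calls among the members, 30 held whichever array was left out. The counts by role below were not tested against these shares. Of the 10 named defence and stress genes, 5 were called higher and 0 lower by limma, and 3 of these calls held: BIK1 rose by 1.46 (limma SE 0.22, adjusted p = 0.00094), YLS5 by 1.76 and CHI by 6.57. The calls of EULS3 and JAL23 were lost without at least 1 array, and the other 5 genes were not called. Of the 7 wall genes, 2 were called: XTH32 and TBL28 fell by 1.36 and by 1.31 on the log2 scale, and both calls held. In the other roles, VPS37-2 and ARL were called higher and COS1 and HEME2 lower, and of these only the VPS37-2 call held. No gene of transcription and signalling was called. BIK1 had 208 and 182 in cpr5scv1, against 70.8 and 70.4 in WT. XTH32 had 142 and 152 in cpr5scv1, against 306 and 466 in WT. The 3 members called between cpr5scv1 and cpr5 were AT2G39400 (1.38), AT2G44230 (-1.35) and AT2G40460 (-1.29), and each was lost without either array of cpr5 or of cpr5scv1, AT2G40460 also without either array of cpr5npr1 or npr1 (limma adjusted p up to 0.201, 0.171 and 0.258).

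The members called in cpr5 against WT were also in the runs' level for the most part. These 23 members had a median difference of 0.86 between cpr5npr1svi1 and cpr5npr1, with 15 within the level, 6 above and 2 below. The 261 others had a median of 0.84, with 194 within it, 40 above and 27 below. CHI, AT2G37750 and AT2G40600, which rose by 6.03, 3.89 and 1.15 in cpr5, were at 0.86, 0.96 and 0.86. For CHI the replicates gave 0.08 and 1.64, so neither was within the level. Of the other strong rises in cpr5, AT2G43620 was within it at 1.09. AT2G43590, AT2G37130 and AT2G39210 lay above it at 2.45, 1.45 and 1.55, and AT2G44240 below it at -2.33. AT2G37750 had 182 and 198 in cpr5npr1svi1, against 93.8 and 101 in cpr5npr1, with 8.96 and 13.7 in WT. AT2G40600 had 599.9 and 525 in cpr5npr1svi1, against 313 and 306 in cpr5npr1, with 169 and 148 in WT. In both genes cpr5npr1svi1 lay above cpr5npr1, and cpr5npr1 above WT, without overlap.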

How the data were processed

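The values deposited by the authors are MAS5 signal, a linear intensity per probe set, as the submitters' processing notes name it. For its version and scale target, the sources used here give nothing. After the lowest and highest 2% of probe sets were left out, the mean was 100.01 in every array. No further normalization was applied and signals were taken as log2. Of 22746 probe sets without the 64 controls, the dimmest 30% by mean log2 signal were left out, which left 15923. A locus came from the platform annotation and TAIR10.1 (13436 probe sets with 1 locus, 503 with several genes, 8730 with none listed). Background was the 95th percentile of 27 bacterial control sets, and a fold against arrays below it is a lower bound.

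Differences were tested in limma 3.58.1 (R 4.3.3; 6 group means over 12 arrays, 6 residual and 4.65 prior degrees of freedom, intensity trend, Benjamini-Hochberg over all probe sets in each of 8 contrasts). The procedure was tested on simulated data with independent noise in each array, so that test does not cover arrays that deviate together. Arrays of the same replicate number deviated together in all 15 pairs of groups (correlation 0.18 to 0.36), which was taken as pairing by replicate number. The main fit held no term for this pairing. The adjusted p of single genes, and the calls said to hold, thus come from fits that ignore it. The precision rests on 2 arrays per group. Alternatives were other scalings, pseudocount, filters, fits and left-out arrays. Members and gene lists were chosen with earlier results of these data known. Named genes were the 8 largest and 8 smallest differences per run (6 and 6 between them), 6 genes on each side of the ends, up to 6 calls per direction in the contrasts without cpr5npr1svi1, and up to 4 bright members per functional list; all 47 named members were added after their values were seen, with their roles. Gene names follow RefSeq.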

Additional observations from a re-analysis of the deposited data

How the results depend on the processing

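The medians of both runs stayed positive, and those of the genes between them near 0, under every alternative run, among them keeping only genes above background on every array, which was added after seeing the data. Setting arrays below background to it, also added then, touched 7 members and left 209 within the level, with BGLU28 leaving it and AT2G37980 entering. With a pseudocount of 32, which lowers differences of dim genes by construction, the medians were 0.64 in run 1 and 0.66 in run 2. Run 2 had 0.76 with no filter on dim probe sets, and 0.87, 0.86, 0.91 and 0.89 against cpr5scv1, cpr5, npr1 and WT; the genes between had 0.060 against cpr5scv1. Leaving out 1 array gave 0.81 to 0.89 in run 1, 0.82 to 0.85 in run 2 and -0.086 to 0.040 between them.

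Counts of called members moved more. Without 1 array, the count over all probe sets mostly fell or rose with that of the members. It went the other way in cpr5npr1svi1 against WT without WT replicate 2, and in cpr5 against WT without either cpr5npr1 array. The ranges of called members below thus do not describe the runs alone. Leaving out 1 array gave 0 to 89 in cpr5npr1svi1 against cpr5npr1, 77 to 139 in cpr5npr1svi1 against WT, 5 to 21 in cpr5npr1 against npr1, 11 to 25 in cpr5 against WT, 0 to 7 in npr1 against WT, 0 to 5 in cpr5scv1 against cpr5 and 34 to 61 in cpr5scv1 against WT. The replicate block gave 139 in cpr5npr1svi1 against cpr5npr1 (3.97% of all probe sets were called), 27 in cpr5npr1 against npr1 (10.4%), 49 in cpr5 against WT (17.4%), 9 in cpr5scv1 against cpr5 (3.8%) and 94 in cpr5scv1 against WT (34.0%). Fits of only the groups compared, which have fewer samples, gave 6 and 62 for cpr5npr1svi1 against cpr5npr1 and WT (0.232% and 4.17% of all probe sets), 10 for cpr5npr1 against npr1 (3.59%), 11 for cpr5 against WT (3.24%), 5 for cpr5scv1 against cpr5 (1.75%) and 39 for cpr5scv1 against WT (12.7%). A pseudocount of 32 gave 88 in cpr5npr1svi1 against cpr5npr1 (1.68%), 1 in cpr5npr1 against cpr5 (0.0754%) and 5 in cpr5scv1 against cpr5 (1.31%); no intensity trend gave 27 in cpr5npr1svi1 against cpr5npr1 (0.528%), and scaling to one median 35 in cpr5 against WT (10.6%); the cause was not tested. No result reversed. With 2 arrays per group, genes near background are the least certain.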
